A study of Mus musculus with 4 samples.

Results

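Histone H3 trimethylated at lysine 4 (H3K4me3), a chromatin mark found around the start sites of active genes, was examined at 8 genes that encode components of central nervous system myelin. The genes were Mbp, Mobp, Mag, Mog, Cnp, Mal, Cldn11 and Ermn, 8 of the 21938 protein-coding genes in the annotation. They were chosen by name with earlier results of the same peak lists known, and their peaks were taken from within 1 kb of every annotated start site. The values below therefore describe these genes and no test was made on them. The mark was profiled by chromatin immunoprecipitation and sequencing (ChIP-seq) in pool D and in pool C, each with 2 technical replicate libraries. Both pools held hippocampal tissue from male adult B6CASTF1/J mice aged 2 months, and each combined 7 biosamples. B6CASTF1/J is a first-generation hybrid of a laboratory strain and a wild-derived strain, so each animal carried 2 different parental genomes that the peak lists do not separate. The labels call the tissue a layer of hippocampus without naming the layer, and they give no treatment and no other tissue.

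Each pool gave 1 peak list, because its technical replicates shared 1 alignment, and a further list held the peaks that the authors called replicated. Every position is on mouse build mm10. Sequencing depth is unknown from the files. The pool D list held 24690 peaks and the pool C list 34193, and the replicated list held 27063. Marker genes of hippocampal and forebrain neurons were marked in 10 of 10 cases in each of these lists. Of all protein-coding genes, 64.3% were marked in pool D, 66.9% in pool C and 65.5% in the replicated list. The median promoter domain of these markers was 11347 bp in the replicated list, against 2234 bp over all marked genes. The markers were chosen with earlier results known, so their count is not evidence of more frequent marking. The tissue is a mixture of cell types. A smaller share of oligodendrocytes and less mark per oligodendrocyte cannot be told apart in it.

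Oligodendrocytes wrap axons in a multilayered membrane sheath, the myelin, which speeds the conduction of nerve impulses and supports the axon. Mbp and Mobp lie between the compacted membranes, Mag faces the axon, Mog is displayed on the outermost surface, and Cnp keeps cytoplasmic channels open in the sheath. Cldn11 forms tight junctions between myelin layers, Mal is a membrane proteolipid involved in sorting lipids and proteins, and Ermn binds the actin cytoskeleton. Promoters rich in the dinucleotide CpG carry H3K4me3 in most cell types, whereas CpG-poor promoters tend to carry it where their gene is active.

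The promoters of these genes fell on both sides of that division, as shown by the sequence from 250 bases before to 30 bases after the RefSeq start site. The sequences are from RefSeq on build GRCm38.p6, the same assembly as mm10, and run 5′ to 3′ in the direction of transcription. For 5 genes the CpG dinucleotides are in capitals. Cldn11 (chr3:31149670-31149949, plus strand) had 23 CpG in these 280 bases and Cnp (chr11:100574689-100574968, plus strand) had 14. Mag (chr7:30914834-30915113, minus strand) had 5, Ermn (chr2:58052835-58053114, minus strand) had 4 and Mog (chr17:37023369-37023648, minus strand) had 3. For Mobp (chr9:120149492-120149771, plus strand), which had 5 CpG, the capitals mark instead each match to ACAAAG, a core sequence recognised by SOX factors, here read on the opposite strand.
Cldn11: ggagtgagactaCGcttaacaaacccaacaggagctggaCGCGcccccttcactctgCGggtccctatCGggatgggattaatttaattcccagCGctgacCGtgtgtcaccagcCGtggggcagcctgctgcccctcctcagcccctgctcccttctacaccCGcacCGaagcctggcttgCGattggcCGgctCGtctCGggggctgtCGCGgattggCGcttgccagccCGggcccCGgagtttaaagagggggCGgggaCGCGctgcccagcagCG
Cnp: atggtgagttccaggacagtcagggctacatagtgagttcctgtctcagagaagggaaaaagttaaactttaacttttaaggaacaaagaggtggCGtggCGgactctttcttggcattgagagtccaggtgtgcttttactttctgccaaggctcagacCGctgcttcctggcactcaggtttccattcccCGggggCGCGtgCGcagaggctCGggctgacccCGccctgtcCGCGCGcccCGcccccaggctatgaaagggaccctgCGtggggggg
Mag: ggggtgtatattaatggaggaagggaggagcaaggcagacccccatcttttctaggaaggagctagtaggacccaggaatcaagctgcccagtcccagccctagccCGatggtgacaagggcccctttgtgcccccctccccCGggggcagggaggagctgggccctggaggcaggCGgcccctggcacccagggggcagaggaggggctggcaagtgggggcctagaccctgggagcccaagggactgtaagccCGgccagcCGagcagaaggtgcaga
Ermn: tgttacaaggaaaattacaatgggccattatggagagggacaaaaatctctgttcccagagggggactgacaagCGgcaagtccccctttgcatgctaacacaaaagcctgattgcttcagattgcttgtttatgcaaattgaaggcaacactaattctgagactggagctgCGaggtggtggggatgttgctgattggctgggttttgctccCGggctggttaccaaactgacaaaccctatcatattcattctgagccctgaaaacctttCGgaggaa
Mog: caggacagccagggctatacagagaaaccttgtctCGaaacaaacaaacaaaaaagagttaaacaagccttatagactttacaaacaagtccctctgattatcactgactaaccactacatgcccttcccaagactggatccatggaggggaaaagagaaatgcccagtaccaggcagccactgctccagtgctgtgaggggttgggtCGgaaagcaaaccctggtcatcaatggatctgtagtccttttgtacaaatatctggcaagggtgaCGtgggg
Mobp: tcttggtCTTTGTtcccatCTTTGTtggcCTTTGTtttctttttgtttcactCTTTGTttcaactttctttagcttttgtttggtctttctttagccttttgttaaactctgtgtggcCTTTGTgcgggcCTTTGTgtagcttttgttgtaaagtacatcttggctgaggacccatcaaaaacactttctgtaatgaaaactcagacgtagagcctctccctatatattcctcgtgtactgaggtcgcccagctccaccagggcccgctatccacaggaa

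Short sequences in these promoters were set against the whole RefSeq table of 32851 promoters of 300 bases, in which 7 of the members had 9 entries. The median promoter of the table held 7 CpG in its 300 bases, and the Mal promoter, not printed above, held 8. The Mobp promoter held 6 matches to ACAAAG, counting both strands, and no other promoter in the table held as many. At least 1 match stood in 18.7% of all promoters, among them the promoters of Cnp and Mag. The sequence CTGGCAC, found in 5.01% of promoters on either strand, stood once in Cnp and once in Mag, and CTGGTAC, found in 2.24%, stood once in Mog. Both are forms of the core motif described for MYRF, the myelin regulatory factor. None of the member promoters held TATAAA (13.6% of all promoters), AACAAT (10.7%) or the E-box CAGCTG (16.3%). A match says only that the letters are present in the window.

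The replicated list held a promoter peak for all 8 genes, where 65.5% of all protein-coding genes had one. All 11 promoter peaks of the members in it had the same ends as peaks in the list for the pools combined. A replicated peak need not have been called in each pool. The Mog peak at chr17:37022237-37023276 and the Mobp peak at chr9:120150713-120151267 overlapped no peak of the pool D list. In the pool D list 7 of the 8 were marked, all but Mog, where 64.3% of all genes were marked. In the pool C list all 8 were marked, where 66.9% of all genes were. At the stricter limit of a −log10 q of at least 5 the replicated list kept Mbp, Cnp, Mal and Cldn11 (4 of 8, with 64.4% of all genes kept). The pool D list also kept 4 (63.1% of all genes), while the pool C list kept all 8 (66.0% of all genes). The members were selected on these lists, so their counts are not evidence that myelin genes are marked more often than others.

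Signal, the enrichment of a peak on the scale of the authors' caller, was used as a percentile within its own list, where 100 is the strongest peak. The strongest promoter peaks ranged from strong to weak, and in each list Mbp, Cnp, Cldn11 and Mal stood above the other marked members. Mbp stood at percentile 76.6 in pool D, 85.3 in pool C and 80.1 in the replicated list, and Cnp at 68.6, 80.5 and 72.4. These Mbp values belong to its upstream start sites. Its downstream start sites, which serve the classic myelin isoforms, were unmarked in pool D. They stood at 41.6 in pool C, below Mag, and at 30.0 in the replicated list, below Mal. The breadth of Mbp in the replicated list, given below, belongs to the downstream start sites. Cldn11 stood at 41.5, 60.0 and 48.6 in the same lists, and Mal at 40.1, 56.8 and 46.2. Below them came Mag at 7.75, 43.2 and 9.02, Mobp at 4.29, 38.3 and 18.6, and Ermn at 2.49, 37.8 and 16.3. Mog had no promoter peak in pool D and stood at 27.5 in pool C and 8.88 in the replicated list. The order Mbp, Cnp, Cldn11, Mal, Mag, Mobp, Ermn was the same in the pool D list and in the pool C list. Percentiles of lists of different length are given side by side, and whether the mark itself changed between pools was not tested. The median percentile in pool D minus that in pool C was −18.6 over the 7 members marked in both pools. Over all 14098 genes marked in both it was −8.12.

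Set beside other genes, most of these promoters had weak peaks, while their domains ran between narrow and broad. The median percentile of the strongest promoter peak was 32.4 over the 8 members and 75.7 over all 14369 marked genes of the replicated list, and 7 of the 8 lay under 75.7. A promoter domain joins peaks no more than 1 kb apart, and a gene with several takes its broadest. The median breadth in the replicated list was 2703 bp over the members and 2234 bp over all marked genes, whose lower and upper quartiles were 1626 and 3137 bp. Of the 8 members, 5 were above the median of all genes, while Mobp and Mog were among the narrowest, at percentiles 6.40 and 8.72 of marked genes. The order of the medians turned with the joining rule: with no gap closed they were 1392 bp over the members and 2082 bp over all marked genes. In pool D the medians were 940 bp over the 7 marked members and 2034 bp over all marked genes. In pool C they were 4483 bp over the 8 members and 2400 bp over all marked genes.

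**Figure D1:**
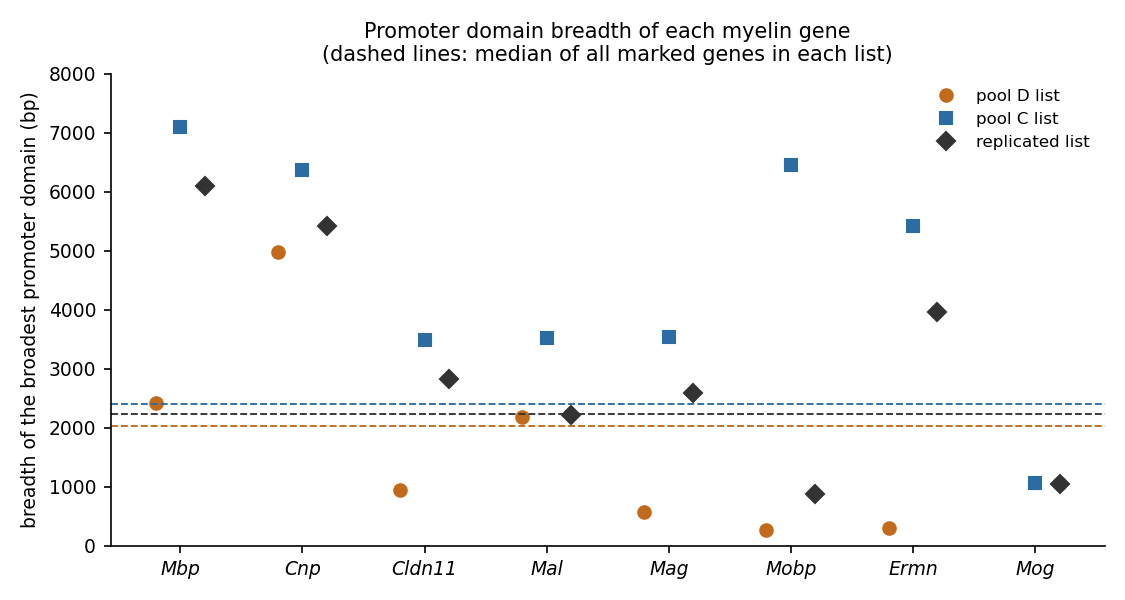
Breadth of the broadest promoter domain of each gene in bp (vertical axis), with circles for the pool D list, squares for the pool C list and diamonds for the replicated list; dashed lines are the medians of all marked genes, 2034 bp in pool D, 2400 bp in pool C and 2234 bp in the replicated list. Cnp stands near 5 kb or above in every list, Mobp and Ermn lie at 267 and 305 bp in pool D but above 5 kb in pool C, and Mog has no pool D value.

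Mbp, whose protein holds the cytoplasmic faces of compact myelin together, spans chr18:82475146-82585637 on the plus strand and had 3 groups of start sites. The upstream group, which serves the long Golli transcripts made also outside oligodendrocytes, carried the stronger peak. Its domain measured 2425 bp in pool D, 2544 bp in pool C and 2499 bp in the replicated list, a log2 ratio of pool D over pool C of −0.07. The downstream group, which serves the classic myelin isoforms, lay further along the gene and was marked in pool C over 7096 bp and in the replicated list over 6097 bp. In pool D 2 peaks lay in the same stretch, at chr18:82556286-82557274 and chr18:82557607-82557984, but the nearer began 1706 bp past the last of those starts, so that the start group counted as unmarked. The downstream peak stood at percentile 41.6 in pool C and 30.0 in the replicated list, and its summit in the replicated list was 2272 bp past the nearest start. The pool values of Mbp given per gene therefore come from different start groups, 4761 ± 3303 bp over both pools (SD, n = 2). The last start group, at position 82563262, was unmarked in all lists.

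Mobp, a small basic protein of compact myelin, spans chr9:120149707-120181484 on the plus strand. Its domain measured 267 bp in pool D, 6450 bp in pool C and 879 bp in the replicated list. In pool D a single peak sat at the second start group, at position 120153045, and nothing was called at the first. In pool C 4 peaks joined into a domain that ran across both start groups, and one of the gaps, at 981 bp, was just short enough to be closed. In the replicated list the peak at chr9:120150713-120151267 reached only 30 bp into the window of the first group, and its gap to the next peak was 1801 bp, too long to be joined. Of the start groups of Mobp, the one at position 120173029 was unmarked in every list.

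Mag, an adhesion molecule of the membrane next to the axon, spans chr7:30899176-30914873 on the minus strand, and Mog, a surface immunoglobulin-like protein, spans chr17:37010743-37023398 on the minus strand. The Mag domain measured 574 bp in pool D, 3544 bp in pool C and 2589 bp in the replicated list. It consisted of 1 peak in pool D, 3 in pool C and 2 in the replicated list. The Mog domain measured 1066 bp in pool C, at a −log10 q of 7.84, and 1040 bp in the replicated list, at a −log10 q of 3.90. In pool D the only peak inside Mog, at chr17:37020186-37020583, began 2616 bp past the nearest start. All 3 lists also held a much stronger peak upstream of Mog, in the replicated list at chr17:37028405-37029297 and percentile 71.8. It lay 5007 bp upstream of the start of Mog and was not counted as a promoter peak.

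Cnp, an enzyme and structural protein of the cytoplasm-filled parts of the sheath, spans chr11:100574904-100591729 on the plus strand, and of the per-gene log2 ratios of breadth between pools its own was nearest to 0. Its domain measured 4978 bp in pool D, 6360 bp in pool C and 5413 bp in the replicated list, 5669 ± 977 bp over both pools (SD, n = 2). In the replicated list 94.7% of marked genes had a narrower domain. Cldn11, at chr3:31149920-31164324 on the plus strand, measured 940 bp in pool D, 3491 bp in pool C and 2817 bp in the replicated list. In pool D a second Cldn11 peak lay 1051 bp past the first, just over the distance that would have joined them, against a gap of 182 bp in pool C.

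Mal, at chr2:127633226-127656695 on the minus strand, measured 2178 bp in pool D, 3515 bp in pool C and 2210 bp in the replicated list, in each as 1 unbroken peak. Ermn, at chr2:58045113-58052864 on the minus strand, measured 305 bp in pool D, 5422 bp in pool C and 3954 bp in the replicated list. Its mark was spread over many small peaks, 5 in the domain of the replicated list and 6 in that of pool C, which together with their gaps spanned 51.0% and 69.9% of the length of the gene. Only 0.202% of marked genes had a promoter domain of 5 or more joined peaks in the replicated list.

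**Figure D2:**
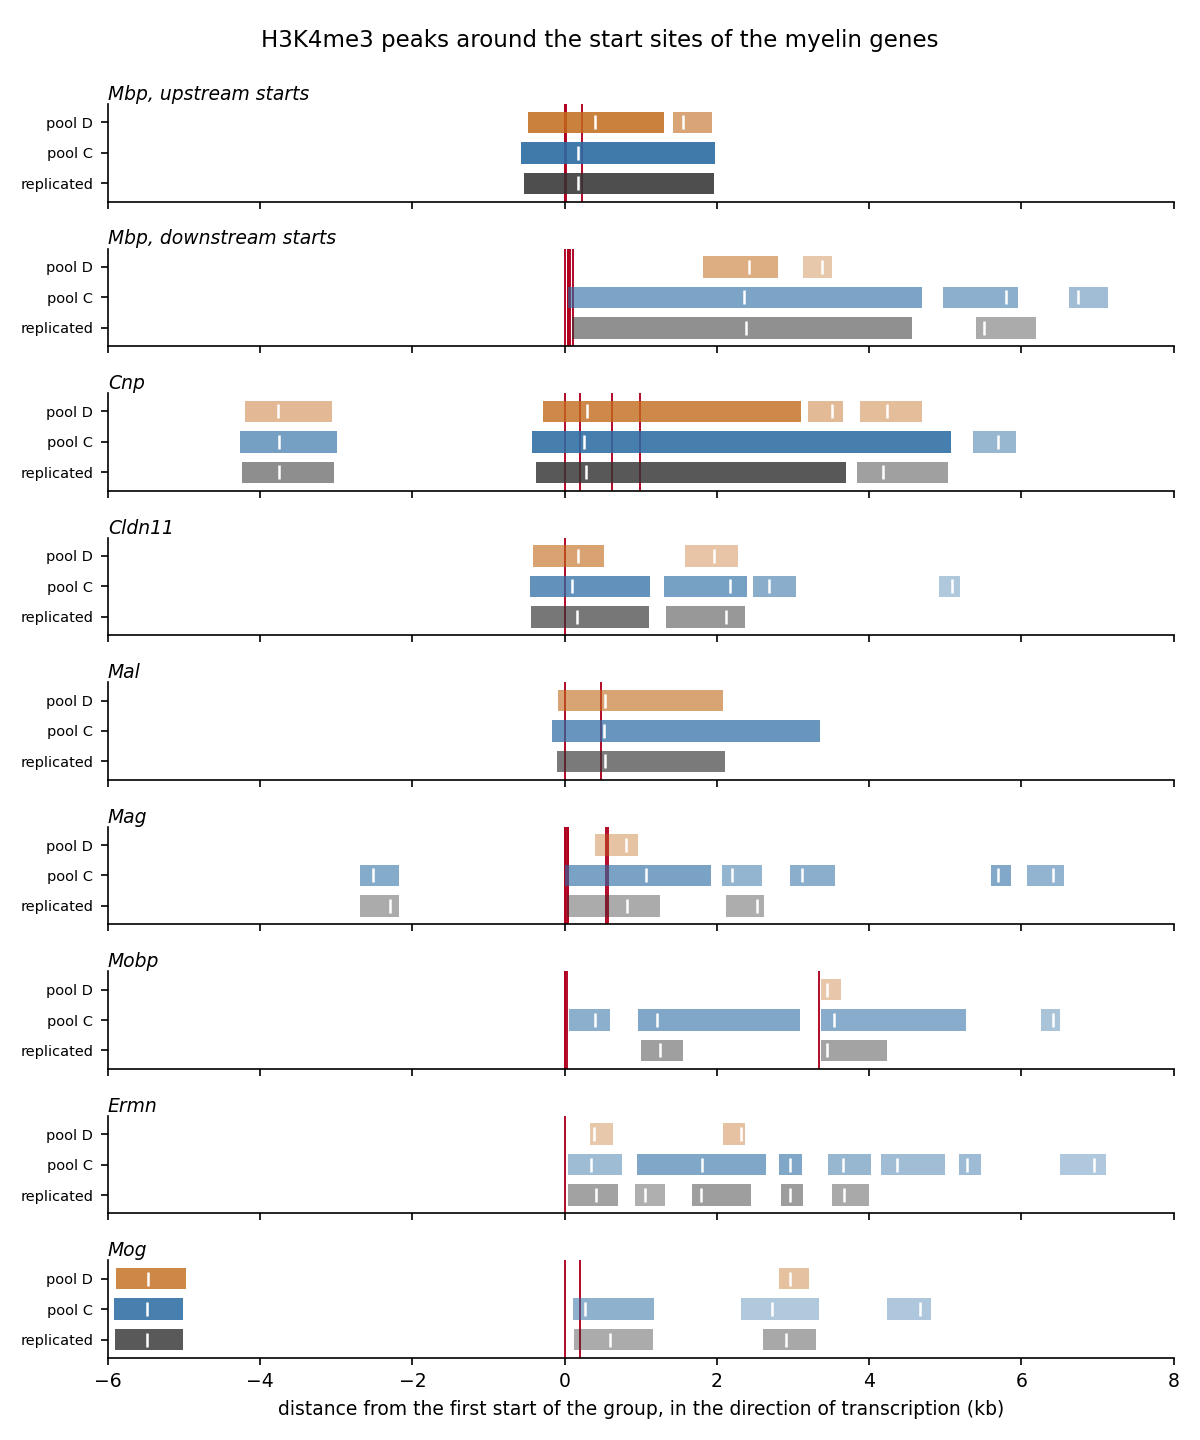
Peaks of the pool D, pool C and replicated lists around the start sites of each gene, with distance in kb from the first start of the group in the direction of transcription (horizontal axis); vertical lines are annotated starts, darker bars are peaks of higher signal percentile and the light tick in each bar is its summit. Most peaks lie to the right of the starts, and Ermn, Mag and the downstream starts of Mbp show rows of short or weak peaks that cover less ground in pool D than in pool C.

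For 7 of 7 members marked in both pools the domain was narrower in pool D than in pool C. Narrowing in pool D was general, since 96.8% of the 14098 genes marked in both pools had a narrower domain there. The median log2 ratio of breadth, pool D over pool C, was −1.89 over the members and −0.23 over all those genes, whose lower quartile was −0.40 and whose 5th percentile was −0.94. Mobp had a log2 ratio of −4.59, and 0% of genes had a lower one. Ermn followed at −4.15, with 0.00709% of genes lower, and Mag at −2.63, with 0.170% lower. In pool D each of these genes had a domain of 1 weak peak. The −log10 q was 2.39 at Mobp, 2.19 at Ermn and 3.83 at Mag, below the stricter limit of 5. Cldn11 stood at −1.89 (0.624% lower) and Mbp at −1.55 (1.22% lower), while Mal at −0.69 (9.29% lower) and Cnp at −0.35 (30.0% lower) lay nearer to the bulk of genes. The value of Mbp sets its upstream start group in pool D against its downstream group in pool C. For the upstream group, the only one of Mbp marked in both pools, the ratio was −0.07. With that value in its place the median over the members was −1.89, which is the value of Cldn11 alone. The next value above it was −0.69, at Mal, so this median rests on the domain called for Cldn11 in pool D. The 2 pool D peaks of Cldn11 lay 1051 bp apart, just over the distance that would have joined them. The ratios were not recomputed under other joining rules, so how far this median depends on the rule was not tested.

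**Figure D3:**
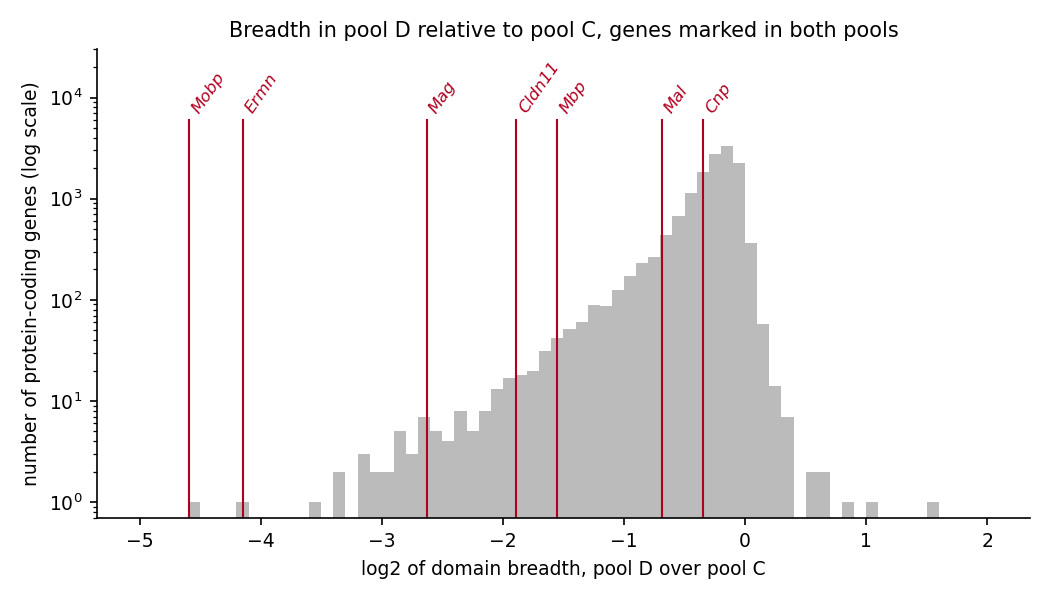
Histogram of the log2 ratio of promoter domain breadth, pool D over pool C, for the 14098 protein-coding genes marked in both pools (number of genes on a log axis), with a vertical line for each of the 7 myelin genes marked in both. All 7 lines lie to the left of the median of −0.23, those of Mobp and Ermn at the far left end, but the line of Mbp sets different start groups against each other, and its upstream group alone would stand at −0.07, right of that median.

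Other gene groups also differed between the pools. Of all genes, 5 were marked in the pool D list alone and 588 in the pool C list alone. Of the 5 microglial markers, the pool D list marked 0 and the pool C list 5, where 64.3% and 66.9% of all protein-coding genes were marked. The median log2 ratio of breadth was −0.77 over 5 astrocyte markers, −0.54 over 3 endothelial markers and −0.32 over 10 markers of hippocampal and forebrain neurons. Peripheral myelin genes marked in both pools had a median of −0.15 over 5 genes. Pool D and pool C are 1 list each, the lists differ in the number of peaks called, and the part of list size or of cell composition in the myelin values was not tested.

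The 34 separate starts of the members fell into 12 groups of starts no more than 1 kb apart, of which 10 had a peak in the replicated list, where 36.8% of all 48607 start groups had one. Of the 12, the pool D list marked 7, with 35.4% of all start groups marked, and the pool C list 10, with 38.5% marked. Start groups were ordered by their CpG count within 500 bp on either side of the first start and divided at the quartiles into 4 classes. In the lowest class, with up to 9 CpG, 4.07% of all start groups were marked. The share was 11.4% in the second class, with up to 16 CpG, 37.5% in the third, with up to 43, and 96.6% in the highest.

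Among the members the start groups with more CpG had the stronger peaks, while the breadths overlapped. The 4 marked start groups with 41 to 60 CpG, those of Mal, Cnp, Cldn11 and the upstream group of Mbp, had their strongest peaks between percentiles 46.2 and 80.1. The 6 with 7 to 37 CpG had theirs between percentiles 8.88 and 30.0. Domains of the richer groups measured 2210 to 5413 bp and those of the poorer groups 555 to 6097 bp. The cut between 37 and 41 CpG is not one of the class limits above. It lies where these same start groups separate, so the split is not independent support for a link. By class, Mal fell in the third class, with the downstream group of Mbp and the first group of Mobp. This is a description of 10 start groups of 8 genes, some of which share a gene.

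Most of the member peaks were also weak for promoters of similar CpG content. Of the 10 marked start groups, 9 had a weaker strongest peak than the median marked group of the same class. Cldn11 was stronger than 7.27% of the marked groups in its class, Mag than 5.96%, Mog than 6.24%, Ermn than 11.2% and the downstream group of Mbp than 12.3%. The exception was the upstream group of Mbp, which was stronger than 53.5%. Of the 10, 7 were broader than the median of their class, and 6 were both weaker and broader. The downstream group of Mbp was broader than 95.3% of its class, Cnp than 94.3% and Ermn than 82.1%, whereas the start groups of Mobp were broader than 6.77% and 12.1% and Mog than 14.1%.

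**Figure D4:**
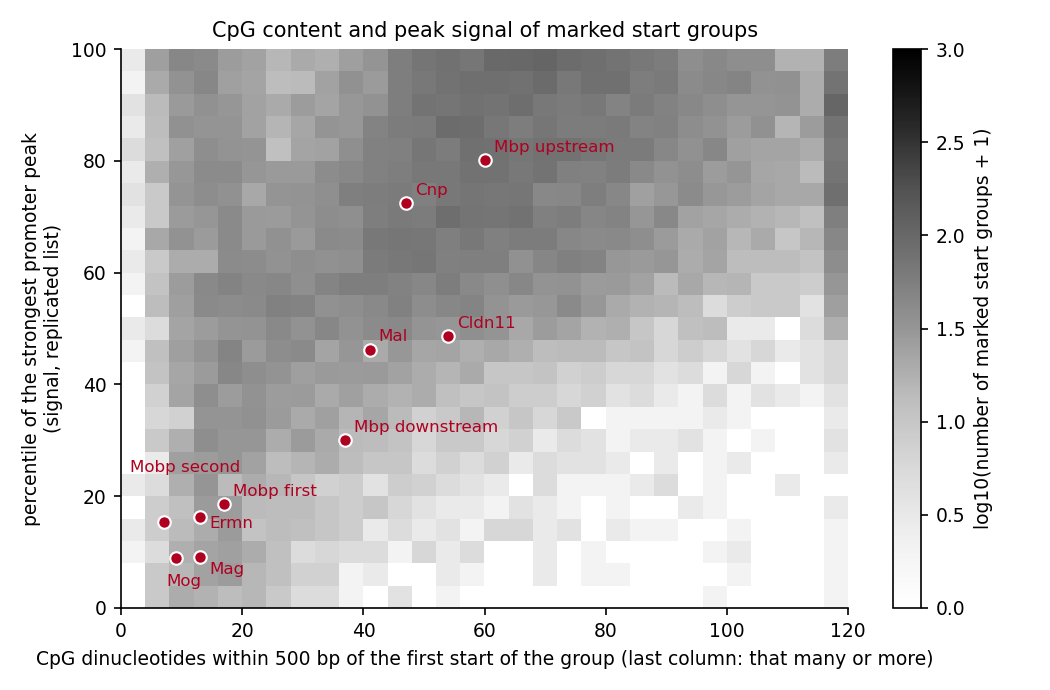
CpG dinucleotides within 500 bp of the first start of a group (horizontal axis) against the signal percentile of its strongest promoter peak in the replicated list (vertical axis); grey shading is the number of all marked start groups on a log10 scale, and circles are the 10 marked start groups of the myelin genes. The circles with 41 or more CpG lie between percentiles 46.2 and 80.1, those with fewer CpG between 8.88 and 30.0. This cut lies where the circles separate and is not a class limit.

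Measured from the most upstream annotated start, the mark lay to one side at several of these genes. Of the 6 members with a single start group, Mag, Mog and Ermn had a domain that began past the 5′ end of the gene. In the replicated list the distances were 31 bp, 122 bp and 43 bp, so that the domain did not reach upstream of that end. Ermn has 1 annotated start, but the Mag and Mog domains covered later starts of their groups. At Mog the domain reached 77 bp upstream of the later start. Among 4957 genes with 1 start group and 1 promoter domain, 6.15% had a domain that began at or past the start. The domains of Cnp, Cldn11 and Mal reached 378 bp, 447 bp and 99 bp upstream, and the median of those 4957 genes was 597 bp. In the other direction Cnp reached 5034 bp, Ermn 3996 bp, Mag 2619 bp, Cldn11 2369 bp, Mal 2110 bp and Mog 1161 bp past the 5′ end. The median over the 4957 genes was 1322 bp, and 11.2% of them exceeded 3 kb. In pool C the domains of Mag, Mog and Ermn likewise began 2 bp, 106 bp and 46 bp past the 5′ end, and in pool D those of Mag and Ermn began 395 bp and 334 bp past it.

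The summit of the strongest promoter peak lay past the nearest start in 7 of 7 members in pool D, 7 of 8 in pool C and 7 of 8 in the replicated list. In the replicated list this held for 76.5% of all marked genes. The distance in the replicated list was 56 bp at Mal, 76 bp at Cnp, 167 bp at Cldn11, 251 bp at Mag, 397 bp at Mog and 409 bp at Ermn, against a median of 128 bp over all marked genes. At Mobp it was 114 bp in pool D, measured from the second start group. In pool C and the replicated list it was 1176 bp and 1221 bp, measured from the first group. A weaker peak of the replicated list, at the second group, had its summit 112 bp past the start. In the replicated list 1.56% of all marked genes had a summit more than 1 kb past the start. The median over the members was not on one side of that of all genes: it was 175 bp against 126 bp in pool D, 88.0 bp against 133 bp in pool C and 209 bp against 128 bp in the replicated list. In pool C the summit lay 74 bp past the start at Mog, 502 bp at Mag and 1804 bp at Ermn. That Ermn peak shared only 53 bp with the promoter window, and a weaker Ermn peak nearer the start had its summit at 344 bp. At Mbp the summit lay 50 bp before the nearest of the upstream starts.

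Peaks inside the gene but outside every promoter window were found at 4 of the 7 marked members in pool D, 7 of 8 in pool C and 6 of 8 in the replicated list. Mog, which had no promoter peak in pool D, also had such a peak there. Of all marked genes between 5 and 150 kb long, 17.9% had such a peak in pool D, 28.2% in pool C and 20.0% in the replicated list. Ermn had 1 in pool D, 5 in pool C and 3 in the replicated list, and Mag had 4 in pool C and 1 in the replicated list. Mal had none in any of these lists. Many of the member peaks counted here were joined to a promoter domain and are part of its breadth given above. In the replicated list only the one at Mog stood apart from the promoter domain. No other annotated gene started within 1 kb of any promoter peak of a member, so none of these peaks was shared with a neighbouring promoter. A separate peak at chr7:30917052-30917556, upstream of Mag, lay 69 bp from a start of the long noncoding RNA Gm44662 and was not counted for Mag.

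Of all protein-coding genes, 64.3% were marked in pool D, 66.9% in pool C and 65.5% in the replicated list. Of 32 other genes of myelin and of oligodendrocytes, 31 were marked in pool D, 32 in pool C and 32 in the replicated list. The exception in pool D was Opalin, a membrane glycoprotein of oligodendrocytes. This list was chosen with earlier results known, so its counts are not evidence of more frequent marking. The median breadth over the marked genes of this list was 2192 bp in pool D, 3301 bp in pool C and 2616 bp in the replicated list. The median percentile in the replicated list was 32.4 over the 8 members and 53.1 over the 32 other genes, a difference that was not tested. The broadest in the replicated list were Car2, a carbonic anhydrase, at 7631 bp and Gpr37, a receptor of maturing oligodendrocytes, at 7618 bp. Both differed little between the pools, at 7473 bp in pool D against 7699 bp in pool C for Car2, and at 7583 bp in pool D against 7638 bp in pool C for Gpr37. The log2 ratio of pool D over pool C had a median of −0.53 over the 31 genes marked in both and ran between −2.33 and 0.51.

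Regulators of the oligodendrocyte lineage were set beside the members in the same way. Of 14 regulators, 13 were marked in pool D, 14 in pool C and 14 in the replicated list, Gpr17 being the exception in pool D. The shares of all protein-coding genes marked were 64.3%, 66.9% and 65.5% in the same order. The median breadth in the replicated list was 2703 bp over the 8 members and 3623 bp over the regulators. The zinc finger factor St18 measured 7844 bp in pool D, 8578 bp in pool C and 7803 bp in the replicated list. Sox8, a SOX factor of the lineage, measured 6473 bp in pool D, 10032 bp in pool C and 7699 bp in the replicated list. The median log2 ratio of pool D over pool C was −0.55 over the 13 regulators marked in both pools.

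Of 8 genes of peripheral myelin, the lists marked 5 in pool D, 6 in pool C and 5 in the replicated list, where 65.5% of all protein-coding genes were marked. The replicated list held no promoter peak for Dhh, Ncmap and Pmp2. Egr2, which drives myelination in Schwann cells and is also an immediate early gene of neurons, was the broadest at 4144 bp, followed by Pmp22 at 3183 bp. Of the other markers, Bcl11b, a transcription factor of forebrain neurons, measured 16764 bp in the replicated list. Slc1a3 and Gja1 led the 5 astrocyte genes at 8050 and 5322 bp, Flt1 and Cldn5 the 3 endothelial genes at 5989 and 4543 bp, and P2ry12 and Csf1r the microglial genes at 855 and 695 bp. The microglial genes Aif1 and Cx3cr1 were unmarked in the replicated list, as were Folr1 and Ttr among 3 ependymal and choroid plexus genes, of which Foxj1 measured 1393 bp.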

How the data were processed

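The authors deposited 4 H3K4me3 peak lists on build mm10, per the labels, with 1 list for each pool, 1 for the pools combined and 1 of replicated peaks. The per-library notes tie each list to its alignment. Not given in the sources used here are the aligner and the peak caller. Each deposited peak has a signal value, used only to rank within a list, a −log10 q value, and a display score that was not used for any result.

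Start sites came from GENCODE M21 and sequence from RefSeq GRCm38.p6. All annotated transcripts of 21938 protein-coding genes gave 93513 separate starts. A gene counted as marked where any of its starts lay within 1 kb of a peak, with 1 bp of overlap enough. Peaks within 1 kb were joined into domains. Scripts used Python 3.11.15, pandas 2.3.3, numpy 2.4.6 and pysam 0.24.0, and were tested on simulated data.

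The members and the comparison lists were chosen with earlier results of these data known, so no test was run. Pools are given side by side, with the mean ± SD over 2 pools, whose spread covers these pools only. Named genes were the 8 members, and from each comparison list the 2 with the broadest domains and those without a promoter peak in the replicated list, with any gene sharing a promoter peak of a member. Opalin and Gpr17 are named as exceptions in pool D. The neighbour Gm44662 was chosen after its values were seen. A gene that this rule takes is not reported here.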

Additional observations from a re-analysis of the deposited data

How the results depend on the processing

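The count of members with a promoter peak was 8 in the replicated list. It was also 8 with windows of 500 bp, with starts of protein-coding transcripts only and with 200 bp shared. With the pools combined and with windows of 2.5 kb it was 8 too, but there it could not have been lower. The combined list holds all 11 replicated promoter peaks of the members, and the wider window contains that of 1 kb. It was 7 in the pool D list and 8 in the pool C list, and it dropped to 4 at a −log10 q of at least 5, where Mobp, Mag, Mog and Ermn were lost. The median breadth of 2703 bp did not change with the window, the transcripts or the shared bases. It was 940 bp in pool D, 4483 bp in pool C, 3445 bp with the pools combined and 3447 bp at the stricter limit. With no gap closed it was 1392 bp, against 2082 bp over all marked genes, so the members were then the narrower. With gaps up to 3 kb closed it was 3595 bp against 2339 bp. Pool D, too, had the members narrower, with 2034 bp over all genes. No paired analysis was possible because each pool gave 1 list and no test was run. With 1 list per pool and depth unknown, a missing peak in pool D means only that none was called.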
